A study of Mus musculus with 2 samples.

Results

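The mitosis genes described here are 34 of the 31053 genes in the gene lists of 2 single-cell RNA sequencing libraries of mouse colon epithelium. They form a list of symbols, drawn up with earlier results of these data known, and all 34 were found in both libraries with enough counts to be measured in the kept cells as a whole. By role they are the entry kinases and cyclins Cdk1, Ccna2, Ccnb1, Ccnb2, Plk1 and Aurka; Mki67, Top2a and Ncapd2, which act on the chromosomes; Cenpa, Cenpe, Cenpf, Ndc80 and Kif2c of the centromere and kinetochore; Aurkb, Birc5 and Cdca8 of the chromosomal passenger complex; Bub1, Bub1b and Ttk of the spindle checkpoint. Cdc20 and Ube2c serve protein degradation at anaphase and are grouped here with Cdca3, known for protein degradation at mitotic entry, Kif11, Tpx2, Nusap1, Hmmr, Ckap2 and Tacc3 build the spindle, and Prc1, Racgap1, Kif20a, Kif23 and Anln act in the midzone and in cytokinesis.

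Mice of the genotype c-Kit-creERT2;Rosa26-mTG, given tamoxifen once into the peritoneum (1 mg for each 20 g of weight), were the source of the library labelled GFP. Its cells were sorted for GFP, and the labels call them derived from c-Kit+ cells. Untreated c-Kit-creERT2 mice were the source of the library labelled whole epithelium. Both groups thus carry c-Kit-creERT2, a Cre recombinase that tamoxifen activates in cells that use the Kit gene, while the Rosa26-mTG reporter, which turns green after recombination, was in the GFP group. Neither ages, nor animals per library, nor the time from injection to harvest are given in the sources used here. The comparison asks how the mitosis genes of cells labelled through Kit, the receptor for stem cell factor, stand against those of the epithelium at large.

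Mitosis is driven by the kinase Cdk1 bound to A- and B-type cyclins, which switches on chromosome condensation, spindle assembly and the attachment of chromosomes to spindle fibres through kinetochores. The checkpoint proteins hold division until every chromosome is attached. Cdc20 and Ube2c then let the anaphase-promoting complex mark cyclins for destruction, and the midzone proteins cut the cell in 2. In the colon these genes are known for their use in the lower crypt, where stem cells and their dividing progeny, some already on the way to mucus-producing goblet cells, replace the epithelium, while mature colonocytes near the surface no longer divide.

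With 1 library per group no difference has a replicate check, no test was run, and the intervals (95%) cover counting error only. The matrices and barcode lists are crossed in the records, and each matrix was given to the label whose barcode list has its number of columns, 13575 for GFP and 13967 for whole epithelium. Every direction below would turn with the reverse assignment. The filter kept 5767 cells of the GFP library and 7762 cells of the whole epithelium library, with medians of 15821 and 14160 UMIs (unique molecular identifiers, each standing for 1 captured RNA molecule). The libraries share 60 barcodes. They also differ in sex, with Xist, the RNA of the inactive X chromosome, at 749.8 CPM in the GFP library and 0.0652 CPM in the whole epithelium library (CPM, UMIs per 1000000). The Y-linked gene Ddx3y had 0 UMIs in the GFP library, under a floor of 3 UMIs, and 35.4 CPM in the whole epithelium library. Gt(ROSA)26Sor, transcribed from the locus that carries the reporter, was at 1.14 CPM in the GFP library and 33.8 CPM in the whole epithelium library, and Kit at 7.82 and 15.2 CPM. Genotype, tamoxifen, sort, sex and library preparation cannot be told apart in any difference between them.

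Each library was clustered by itself, without the 34 members, other mitosis and replication genes and histone genes, and clusters were named from marker genes. Stem/progenitor-like cells were 805 in the GFP library and 1295 in the whole epithelium library, goblet-like cells 1278 and 1061, and colonocyte-like cells 1534 and 2347. Clusters took their names from these same markers, so the marker counts that follow describe the classes and do not check them. All 16 goblet markers were higher in goblet-like cells than in the other kept cells of the same library, in both libraries. Of 18 stem/progenitor markers 17 were higher in both libraries, but Lgr5, the receptor that marks crypt base stem cells, was sparse. It was at 1.71 and 7.83 CPM in the GFP clusters of that class, against 13.2 to 30.4 CPM in those of whole epithelium. No defining marker of these classes was at 0.

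Promoters of the members share short sequence elements. RefSeq promoter sequences (GRCm38.p6, from 250 bases before to 50 after each annotated start) were at hand for 30 of the 34 members, all but Aurkb, Ccna2, Kif20a and Tpx2. Known from human and mouse cell cycle genes are CHR elements, bound by complexes that switch mitosis genes on and off, and CCAAT boxes, bound by the factor NF-Y. TTTGAA or TTCGAA, on either strand, stood in 25 of the 30 (83.3%), against 19.4% of all 27025 promoters in the table, 68.6% of those of other mitosis genes and 15.2% of those of replication genes. CCAAT, on either strand, stood in 80% of the members' promoters, 64.7% of those of other mitosis genes, 57.6% of those of replication genes and 37.9% of all. Both kinds together stood in 73.3% of the members' promoters, 54.9% of those of other mitosis genes, 12.1% of those of replication genes and 7.70% of all. TTCGAA reads the same on both strands, and no TTTGAA or TTCGAA can overlap a CCAAT by more than 1 end letter. Of 33 TTTGAA or TTCGAA matches in the members' promoters, 24 lay between 100 bases before the start and the end of the window. Birc5, Nusap1 and Tacc3 held neither in this window. These are letter matches, not sites shown to be bound.

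Shown here are the promoters of 4 members that lead or trail in the comparisons below, with the capitals marking TTTGAA or TTCGAA and CCAAT on either strand (read as TTCAAA and ATTGG on the other). They lie at chr9:70421505-70421804 on the minus strand for Ccnb2, chr4:118437294-118437593 on the minus strand for Cdc20, chr5:30666636-30666935 on the plus strand for Cenpa and chr7:122159185-122159484 on the plus strand for Plk1. Each runs 5′ to 3′ along the gene's strand.
Ccnb2: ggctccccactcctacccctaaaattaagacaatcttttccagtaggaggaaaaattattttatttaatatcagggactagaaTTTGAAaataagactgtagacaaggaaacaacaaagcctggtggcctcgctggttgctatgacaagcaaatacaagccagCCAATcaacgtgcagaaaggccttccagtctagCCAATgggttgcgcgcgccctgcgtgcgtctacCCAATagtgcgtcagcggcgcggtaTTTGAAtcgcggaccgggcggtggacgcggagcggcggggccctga
Cdc20: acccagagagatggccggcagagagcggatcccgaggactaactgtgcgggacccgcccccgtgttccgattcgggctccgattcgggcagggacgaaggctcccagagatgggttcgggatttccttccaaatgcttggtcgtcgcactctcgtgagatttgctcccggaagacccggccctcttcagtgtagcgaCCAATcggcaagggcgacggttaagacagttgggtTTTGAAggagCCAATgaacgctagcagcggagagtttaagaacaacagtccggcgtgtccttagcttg
Cenpa: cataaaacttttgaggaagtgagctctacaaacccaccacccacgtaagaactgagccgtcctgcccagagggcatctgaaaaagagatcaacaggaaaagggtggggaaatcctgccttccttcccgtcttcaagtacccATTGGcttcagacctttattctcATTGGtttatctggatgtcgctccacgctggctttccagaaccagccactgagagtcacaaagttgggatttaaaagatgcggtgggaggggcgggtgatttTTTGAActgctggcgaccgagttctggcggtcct
Plk1: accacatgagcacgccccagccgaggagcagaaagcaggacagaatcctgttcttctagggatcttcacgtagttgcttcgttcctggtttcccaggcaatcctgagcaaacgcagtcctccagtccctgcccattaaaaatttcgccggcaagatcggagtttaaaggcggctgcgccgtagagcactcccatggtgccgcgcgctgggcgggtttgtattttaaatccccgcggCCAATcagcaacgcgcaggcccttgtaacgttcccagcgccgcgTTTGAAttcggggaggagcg
In Ccnb2, Cenpa and Plk1 a TTTGAA or TTCGAA match lies downstream of the CCAAT matches, among the first transcribed bases, and in Cdc20 it lies between a pair of CCAAT matches just before the start.

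Over all kept cells the mitosis genes were modestly higher in the GFP library. Summed over the 34, they made up 1341 CPM (1334 to 1348) in GFP cells and 1105 CPM (1099 to 1110) in whole epithelium cells, a log2 ratio of 0.28 (0.27 to 0.29). Of the 34 members 33 were higher in the GFP library, against a background of 47.2% of the 13843 genes measured. None passed 1.5-fold in either direction, which 6.47% of all genes did upward and 13.5% downward. The median member stood at 0.26 and the median gene at -0.02. In bulk sums such as these, fewer dividing cells and less mitotic RNA per dividing cell cannot be told apart.

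The members furthest up over all kept cells were Anln, Ttk and Cenpe. Anln (ENSMUSG00000036777, GRCm38 chromosome 9, 22332012 to 22389188), an actin-binding scaffold of the cleavage furrow, was at 13.8 CPM in GFP cells and 10.1 CPM in whole epithelium cells (log2 ratio 0.46, 0.35 to 0.56). Ttk, the kinase that starts the spindle checkpoint, was at 8.16 CPM in GFP cells and 5.96 CPM in whole epithelium cells (0.45, 0.32 to 0.59), and Cenpe, the motor that carries chromosomes to the spindle equator, at 34.8 CPM in GFP cells and 25.8 CPM in whole epithelium cells (0.43, 0.36 to 0.49). At the other end stood Aurka (chromosome 2, 172356190 to 172370535), the centrosomal kinase that matures spindle poles, with 16.4 CPM in GFP cells and 17.0 CPM in whole epithelium cells (-0.04, -0.13 to 0.05). Its partner in the spindle Tacc3 was at 18.2 CPM in each library (0.00, -0.08 to 0.09), and Kif23, a motor of the midzone, at 28.1 CPM in GFP cells and 27.9 CPM in whole epithelium cells (0.01, -0.06 to 0.08). The intervals of these 3, and those of Kif20a and Aurkb, spanned 0.

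**Figure D1:**
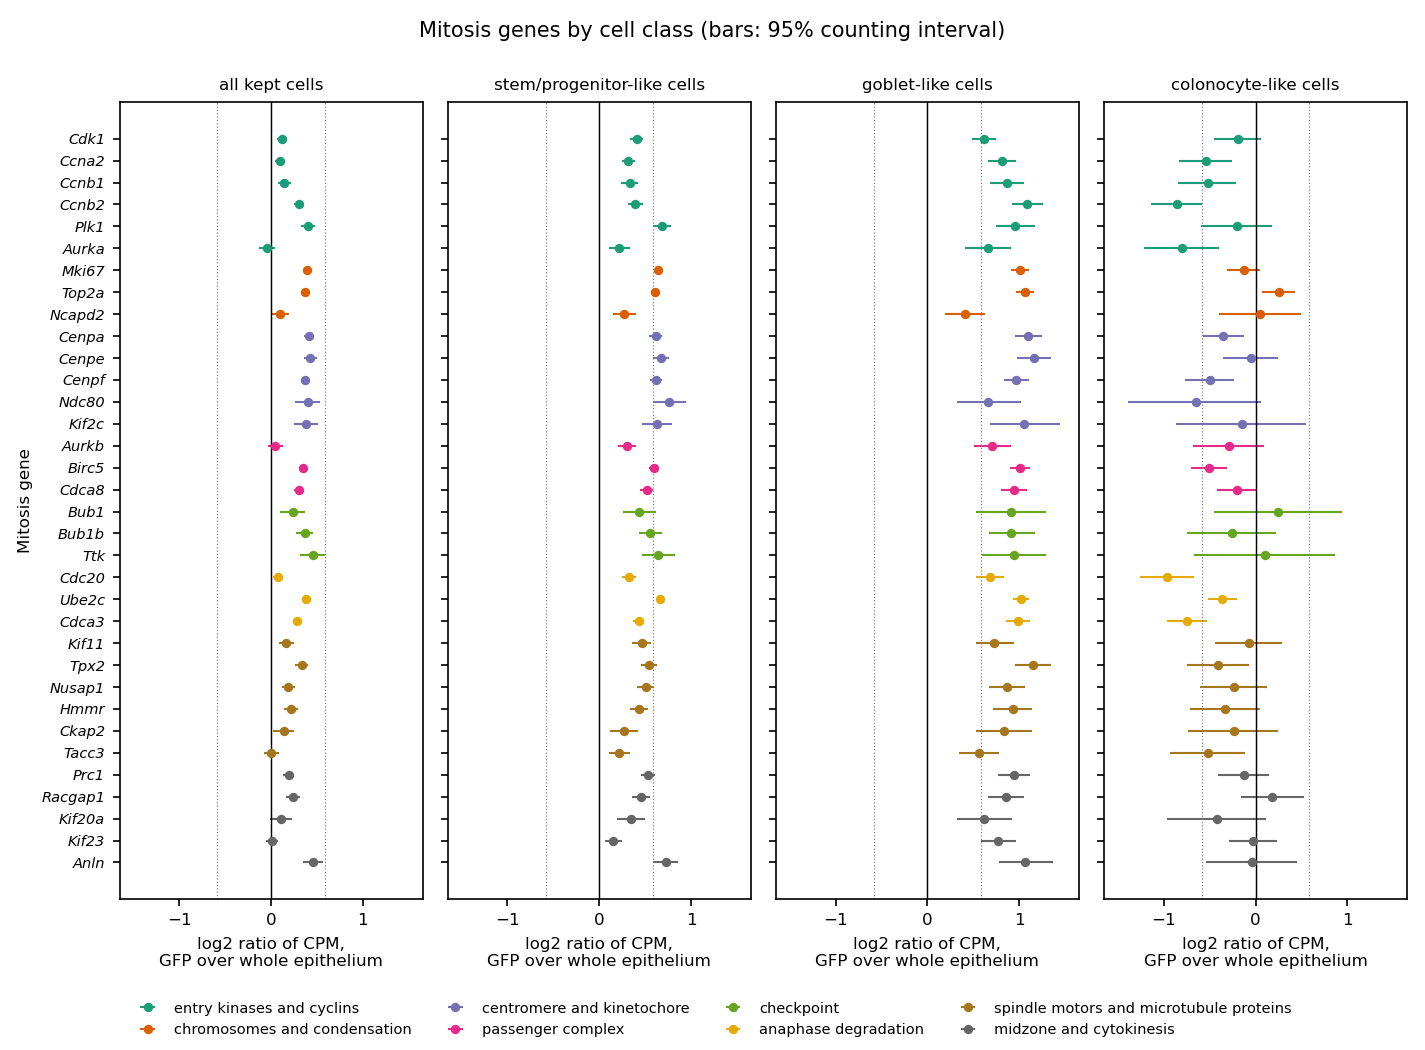
Log2 ratio of CPM (x axis, GFP over whole epithelium) of each of the 34 mitosis genes (rows, coloured by role) in all kept cells, stem/progenitor-like, goblet-like and colonocyte-like cells. Points are ratios of summed UMIs, bars are 95% counting intervals and dotted lines mark 1.5-fold; all 34 points lie right of 0 in goblet-like cells and 29 lie left of it in colonocyte-like cells.

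By role, all 5 centromere and kinetochore genes lay close together over all kept cells, between 0.37 and 0.43, with Cenpf, a large protein of the outer kinetochore, at 60.4 CPM in GFP cells and 46.7 CPM in whole epithelium cells (0.37). Kif2c, a kinesin that takes spindle fibres apart, stood at 0.38. The chromosome genes Mki67, which coats mitotic chromosomes, and Top2a, which untangles DNA, stood at 0.40 and 0.37. Top2a (chromosome 11, 98992943 to 99024189) was at 118 CPM in GFP cells and 91.3 CPM in whole epithelium cells. Ncapd2, a condensin subunit, stood lower, at 0.10 (0.01 to 0.19). Among entry kinases and cyclins the spread was wide: Plk1, which drives several steps of mitosis, was at 0.40, the B-type cyclins Ccnb2 and Ccnb1 at 0.31 and 0.14, Cdk1 at 0.12 and cyclin A2 (Ccna2) at 0.09. Cdk1 (chromosome 10, 69335146 to 69352938), the central mitotic kinase, was at 51.9 CPM in GFP cells and 47.8 CPM in whole epithelium cells.

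In the passenger complex, which corrects faulty attachments, Birc5 (survivin) was at 95.2 CPM in GFP cells and 75.1 CPM in whole epithelium cells (log2 ratio 0.34), and Cdca8 (borealin) stood at 0.30, while the kinase Aurkb stood at 0.05. The checkpoint gene Bub1b was at 16.9 CPM in GFP cells and 13.1 CPM in whole epithelium cells (0.37), and Bub1, a kinase that recruits it to kinetochores, stood at 0.24. Ube2c (chromosome 2, 164769898 to 164778822), the ubiquitin-conjugating enzyme of the anaphase-promoting complex, was at 142 CPM in GFP cells and 109 CPM in whole epithelium cells (0.38). Cdca3, a trigger of mitotic entry through protein degradation, stood at 0.29. Cdc20 (chromosome 4, 118432901 to 118437352), the activator of that complex, was nearly level at 43.0 CPM in GFP cells and 40.9 CPM in whole epithelium cells (0.07, 0.02 to 0.13). Tpx2, which nucleates microtubules, had the highest log2 ratio of the spindle genes (0.33). It was at 30.7 CPM in GFP cells and 24.4 CPM in whole epithelium cells. Hmmr and Nusap1, which bind microtubules, Kif11, the motor that pushes spindle poles apart, and Ckap2 stood between 0.14 and 0.22. Prc1, which bundles midzone microtubules, was at 38.3 CPM in GFP cells and 33.5 CPM in whole epithelium cells (0.19).

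Goblet-like cells showed the widest gap upward among classes of at least 100 cells in each library. There the 34 genes summed to 1360 CPM (1347 to 1374) in GFP cells and 716 CPM (704 to 728) in whole epithelium cells, a log2 ratio of 0.93 (0.90 to 0.95). All 34 members were higher in GFP goblet-like cells, and 32 of them by over 1.5-fold, where 54.8% of the 11649 genes measured were higher and 7.22% were higher, and 8.23% lower, by that fold. The 2 exceptions were Ncapd2, at 18.3 CPM in GFP cells and 13.8 CPM in whole epithelium cells (0.41, 0.19 to 0.62), and Tacc3, at 19.7 CPM in GFP cells and 13.4 CPM in whole epithelium cells (0.56, 0.34 to 0.78). Kif20a, a kinesin of cytokinesis, was the next lowest at 10.9 CPM in GFP cells and 7.11 CPM in whole epithelium cells (0.62, 0.32 to 0.92).

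Cenpe led in goblet-like cells with 35.3 CPM in the GFP library and 15.8 CPM in the whole epithelium library (1.16, 0.97 to 1.35). Tpx2 followed with 32.9 CPM in GFP cells and 14.8 CPM in whole epithelium cells (1.15, 0.96 to 1.35). Cenpa, the histone variant that marks centromeres, was at 53.8 CPM in GFP cells and 25.1 CPM in whole epithelium cells (1.10, 0.95 to 1.25). All 5 centromere and kinetochore genes, all 6 entry kinases and cyclins and all 5 midzone genes passed 1.5-fold. No share over all genes was computed for alternative settings. The direction held in the 9 alternatives that could change it, with sums from 0.71 to 1.14 and 34 of 34 members higher in each. It rests on several clusters: in the GFP library g4 and g6 stood at 1382 and 1466 CPM, the shallow g5 (396 cells, median 2789 UMIs) at 1655 CPM and g14 at 615 CPM, and in the whole epithelium library w2 stood at 838 CPM, w9 at 458 CPM and the shallow w17 at 1373 CPM. Cluster w17 (186 cells, median 4102 UMIs) thus lies within the range of the GFP clusters, and without shallow clusters the sum's log2 ratio was 1.00.

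**Figure D2:**
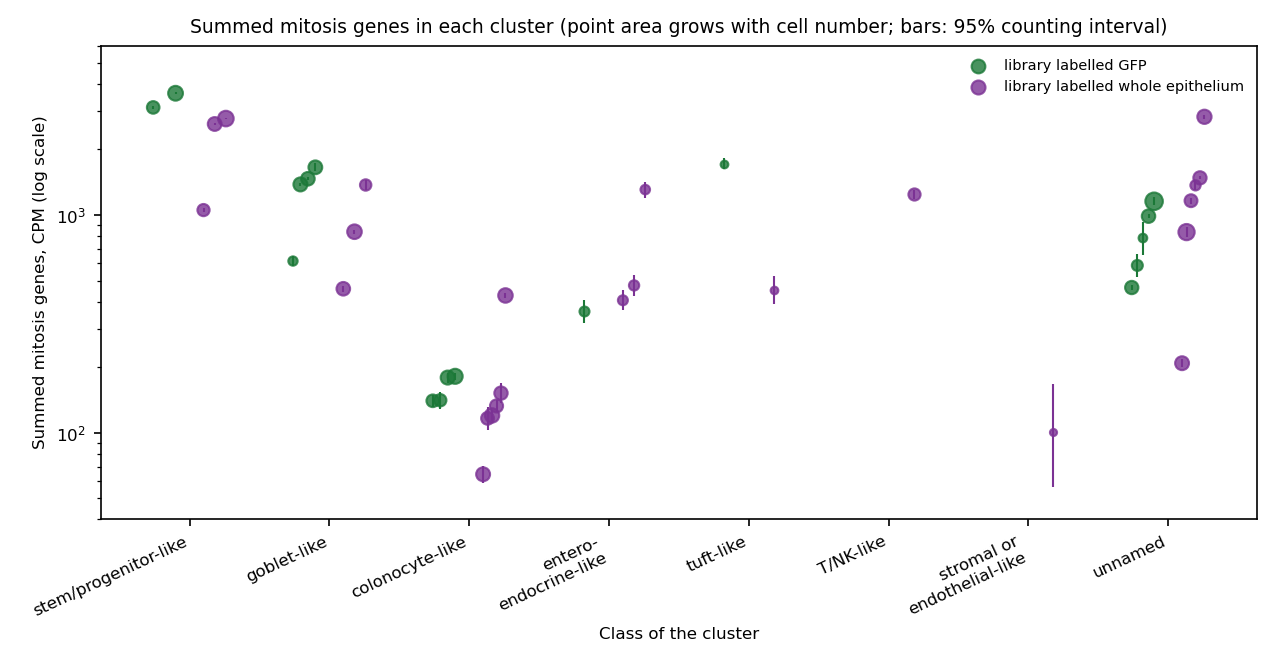
Summed CPM of the 34 mitosis genes (y axis, log scale) in each cluster of at least 20 cells, by class, with GFP clusters left and whole epithelium clusters right; point area grows with the number of cells and bars are 95% counting intervals. Stem/progenitor-like clusters lie highest among the named classes apart from w15 at 1053 CPM, and colonocyte-like clusters reach 427 CPM at most. Of 4 GFP goblet-like clusters 3 lie above all whole epithelium ones, but the intervals of w17 (1373 CPM) and g4 (1382 CPM) overlap.

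Stem/progenitor-like cells carried the highest level of the named classes of both libraries. The 34 genes summed to 3457 CPM (3433 to 3481) in GFP cells and 2419 CPM (2404 to 2435) in whole epithelium cells (log2 ratio 0.51, 0.50 to 0.53). All 34 were higher in GFP cells and 12 passed 1.5-fold, against 62.6% of 11777 genes higher and 7.34% past that fold upward and 7.49% downward. Although the members were kept out of the clustering, Cenpf, Ube2c, Top2a, Cdc20 and Mki67 were among the leading genes of cluster g2, Cenpf and Cenpa among those of w1 and Cenpa among those of w8, so class and members are not independent. Haemoglobin genes also led w1, and Cxcl9 and genes of antigen presentation such as Cd74 and H2-Aa led w8; their part in the result was not tested. Clusters g2 and w8 held no stem/progenitor marker, and none of another class, among their 10 leading genes, and were named on 3 and 5 markers raised at least 2-fold. This gap depended on the clustering: where cell cycle genes were allowed to shape the clusters, 19 members were higher and the sum's log2 ratio was 0.074, and at resolution 0.5 this class gave no value. The share of all genes higher with cell cycle genes in the clustering was not computed.

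Ndc80 (chromosome 17, 71496100 to 71526857), the kinetochore protein that grips microtubules, led in this class with 23.1 CPM in GFP cells and 13.6 CPM in whole epithelium cells (0.76, 0.59 to 0.94). Anln was at 36.1 CPM in GFP cells and 21.8 CPM in whole epithelium cells (0.72, 0.58 to 0.86), and Plk1 at 69.1 CPM in GFP cells and 43.1 CPM in whole epithelium cells (0.68, 0.58 to 0.78). All 5 centromere and kinetochore genes passed 1.5-fold, as did Mki67, Top2a, Birc5, Ttk and Ube2c. The lowest were Kif23 at 67.4 CPM in GFP cells and 60.5 CPM in whole epithelium cells (0.15, 0.06 to 0.25), Tacc3 (0.22, 0.10 to 0.33) and Aurka (0.22, 0.10 to 0.34), which also stood lowest over all kept cells.

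The class was not uniform. In the GFP library cluster g2 stood at 3621 CPM and g10 at 3118 CPM, and in the whole epithelium library w1 stood at 2771 CPM, w8 at 2617 CPM and w15 at 1053 CPM. Both GFP clusters lay above all 3 of whole epithelium. Clusters g10 and w15 share the leading genes Trf, Nxpe2, Fut9, Ttr and Smoc2, a pairing made after the values were seen. Replication genes ran the other way in this pair, at 2221 CPM in g10 and 3104 CPM in w15, and Lgr5 was at 7.83 CPM in g10 and 30.4 CPM in w15.

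Colonocyte-like cells were lowest of the epithelial classes in both libraries. The sum was 168 CPM (163 to 172) in GFP cells and 208 CPM (204 to 212) in whole epithelium cells, a log2 ratio of -0.31 (-0.36 to -0.26), with 5 of 34 members higher in GFP cells against a background of 31.3%. In all 5 members were lower by over 1.5-fold, against 15.8% of the 11316 genes, and none was higher by that fold, against 5.97%. They were Cdc20 at 4.32 CPM in GFP cells and 8.41 CPM in whole epithelium cells (-0.96, -1.25 to -0.68), Ccnb2 at 4.79 CPM in GFP cells and 8.67 CPM in whole epithelium cells (-0.86, -1.14 to -0.58), Aurka at 2.25 CPM in GFP cells and 3.93 CPM in whole epithelium cells (-0.80, -1.22 to -0.40), Cdca3 (-0.75) and Ndc80 (-0.65, -1.39 to 0.06). Top2a, Bub1 and Racgap1, a regulator of the cleavage furrow, were highest at 0.25, 0.25 and 0.18. The median gene was itself at -0.16 in these cells, and relative to it 12 members were higher. The direction turned with the clustering, to a sum of 0.60 at resolution 0.5 and 0.59 with cell cycle genes in the clustering. Cluster w3, at 427 CPM, held 26 of the 34 whole epithelium colonocyte-like cells with 10 or more mitosis UMIs.

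The small classes gave few counts. In enteroendocrine-like cells the sum was 361 CPM (318 to 408) over 110 GFP cells and 628 CPM (594 to 664) over 326 whole epithelium cells (log2 ratio -0.80). Of the 11 members measured there all were lower in GFP cells, where 49.1% of genes were higher, and 6 were lower by over 1.5-fold, which 11.6% of genes were, with 9.2% higher by that fold. Mki67 was at 23.8 CPM in GFP cells and 68.3 CPM in whole epithelium cells (-1.52, -2.34 to -0.79). Ccna2 (-1.23) and Top2a (-0.97) followed, and Birc5, Cdk1 and Cdca3 stood nearest to level, at -0.32, -0.34 and -0.34. The shallow cluster w21 (92 cells, median 4378 UMIs) stood at 1308 CPM, and w18 and w20 at 475 and 406 CPM. Cluster w21 gave 568 of the 1233 mitosis UMIs of this class in whole epithelium. Led by the hormone genes Pyy and Gcg, it had 9 of 15 markers raised. Its 10 leading genes also held Fxyd4, Ly6g, Tgm3 and Slc37a2, which were among those of the colonocyte-like cluster w6. The part of w21 in the class ratio was not tested. The single GFP cluster of this class stood at 361 CPM, below all 3 of whole epithelium. Its interval (318 to 408) overlapped that of w20 (365 to 450). Tuft-like cells, chemosensory cells, were 39 in the GFP library with 1721 CPM and 38 in the whole epithelium library with 453 CPM. T/NK-like cells, lymphocytes found in whole epithelium but not named in the GFP library, were at 1243 CPM over 242 cells.

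Unnamed clusters stood lower in the GFP library. In unnamed clusters of low depth the sum was 1034 CPM in 1261 GFP cells and 1867 CPM in 1340 whole epithelium cells (log2 ratio -0.85), with 33 of 34 members lower in GFP cells and 38.9% of genes higher. By over 1.5-fold 30 members were lower and 1 higher, against 17.7% and 7.77% of genes. Cluster w5 stood at 2824 CPM with a median of 2253 UMIs, and its leading genes were haemoglobin genes with Cenpa, Cenpf and Ube2c among them. Kif20a was lowest there (-1.60, -2.52 to -0.78), followed by Cenpf (-1.52) and Mki67 (-1.25), and Ndc80 alone was higher (0.80, 0.08 to 1.51). In unnamed clusters of ordinary depth the sum was 747 CPM in GFP cells and 887 CPM in whole epithelium cells (-0.25), with 3 of 34 members higher (Ccnb2 at 0.65, Cdca3 at 0.40 and Cenpa at 0.39) against 51.8% of genes. By over 1.5-fold 9 members were lower and 1 higher, against 12.0% and 6.94% of genes. Aurkb was lowest there (-1.20, -1.47 to -0.93), followed by Nusap1 (-1.14) and Prc1 (-1.07). Clusters g7 and w11, both with gasdermin C and Aqp4 transcripts among their leading genes, stood at 988 and 1481 CPM.

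Counted per cell, cells rich in mitosis transcripts were more frequent in the GFP library. Cells were thinned to 5000 UMIs, and a mitosis-high cell was taken as having at least 10 UMIs of the 34 genes. Of 3963 GFP cells 706 were mitosis-high, or 17.8% (16.6 to 19.0), against 689 of 5360 whole epithelium cells, or 12.9% (12.0 to 13.8). The cutoff is a line through a range, as 206 GFP cells and 291 whole epithelium cells had 8 to 12 such UMIs. Mitosis-high cells had more UMIs before thinning than the rest, with medians of 32659 and 20706 in the GFP library and 31807 and 20763 in the whole epithelium library. No doublet caller was run, and the part of doublets in these cells was not tested.

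By class, 55.1% (51.5 to 58.6) of GFP and 32.8% (30.2 to 35.5) of whole epithelium stem/progenitor-like cells were mitosis-high. Among goblet-like cells it was 20.4% (17.8 to 23.1), 187 of 917, in the GFP library and 9.13% (7.16 to 11.4), 68 of 745, in the whole epithelium library. Colonocyte-like cells should hold few dividing cells. Among them 0.413% (6 of 1452) were mitosis-high in the GFP library and 1.76% (34 of 1933) in the whole epithelium library. A share at 10 or more UMIs does not measure free RNA. In this class 54.5% of GFP and 68.2% of whole epithelium cells had 0 mitosis UMIs after thinning. Cells with any such UMI were thus more frequent in the GFP library, and the part of free RNA was not tested. Goblet-like cells made up 26.5% (23.3 to 29.9) of all mitosis-high GFP cells and 9.87% (7.75 to 12.3) of those of whole epithelium, while they were 23.1% of all thinned GFP cells and 13.9% of all thinned whole epithelium cells. Stem/progenitor-like cells made up 61.8% of mitosis-high cells and 20.0% of all thinned cells in the GFP library, and 59.4% and 23.3% in the whole epithelium library. In the stem/progenitor-like class the gap in share was 22.3 points (17.9 to 26.5). With cell cycle genes in the clustering it was 2.19 points (-3.61 to 8.11), an interval that spans 0.

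A definition of mucus-producing cells that needs no clusters gave a like picture. Mucin-high cells were those of at least 5000 UMIs with Muc2, the main mucin, at 50 or more of each 10000 UMIs: 792 GFP cells and 573 whole epithelium cells, of which 94.2% and 90.6% were goblet-like. In them the mitosis genes summed to 1180 CPM (1166 to 1194) in GFP cells and 666 CPM (652 to 680) in whole epithelium cells (log2 ratio 0.82, 0.79 to 0.86). All 34 were higher in GFP mucin-high cells and 32 passed 1.5-fold, where 50.5% of genes were higher, 6.68% passed it and 8.16% were lower by it. Cenpe (1.10), Tpx2 (1.06) and Birc5 (1.04) led, and Aurka (0.29, 0.01 to 0.58), Ncapd2 (0.38, 0.11 to 0.65) and Tacc3 (0.61) were lowest. In mucin-low cells the gap was smaller, 1398 CPM in GFP cells and 1162 CPM in whole epithelium cells (0.27, 0.26 to 0.28), with 31 of 34 members higher against 46.0% of genes and none past 1.5-fold, against 6.02% of genes upward and 13.2% downward.

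Of the mucin-high cells 139 in the GFP library were mitosis-high, or 17.6% (15.0 to 20.4), and 47 in the whole epithelium library, or 8.20% (6.09 to 10.8). In mucin-low cells the shares were 17.9% (16.6 to 19.3) and 13.4% (12.5 to 14.4). Within the GFP library mucin-high and mucin-low cells thus differed by -0.33 points, and within the whole epithelium library by -5.21 points. The gap between libraries in mucin-high cells, 9.35 points, was between 2.23 and 13.0 points in the 6 alternatives that could change it; the choice of clusters has no part in this definition.

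**Figure D3:**
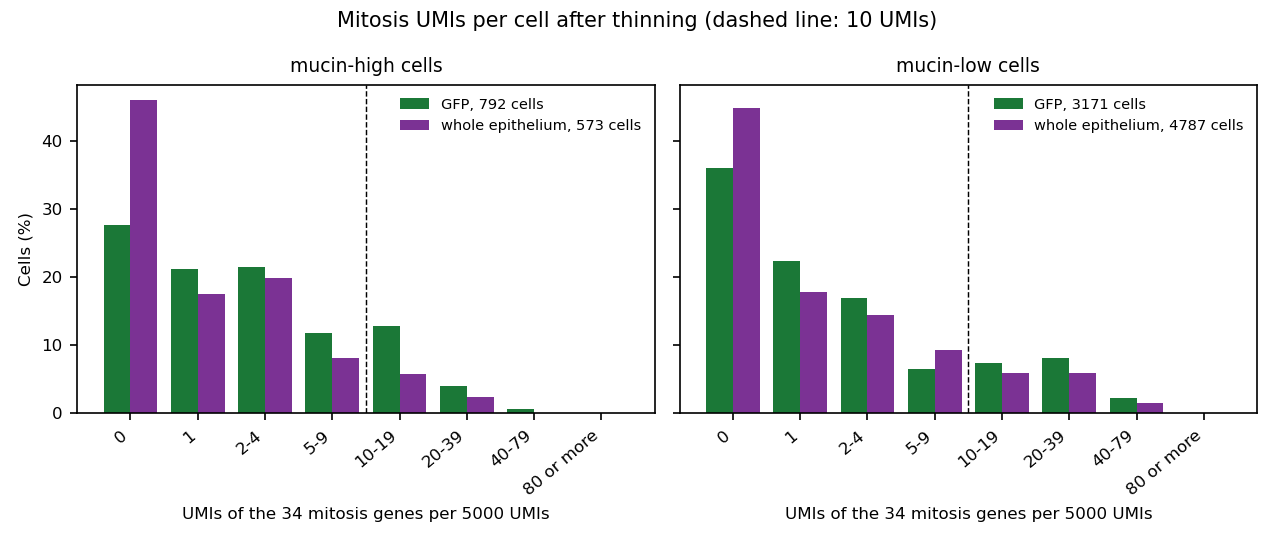
Share of cells (y axis, percent) by the number of UMIs of the 34 mitosis genes after thinning to 5000 UMIs (x axis), in mucin-high cells (left panel) and mucin-low cells (right panel), for the GFP library (green) and the whole epithelium library (purple). In mucin-high cells 27.8% of GFP cells and 46.1% of whole epithelium cells had 0 such UMIs, and right of the dashed line at 10 UMIs the GFP bars are higher.

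Single members show the same in the thinned mucin-high cells. Mki67 had a UMI in 26.8% of GFP mucin-high cells and 17.3% of whole epithelium mucin-high cells, against 5.30% and 3.98% of colonocyte-like cells of the same libraries. Top2a had a UMI in 24.4% of GFP and 14.5% of whole epithelium mucin-high cells, against 6.20% and 4.35% of colonocyte-like cells. Ube2c had a UMI in 24.4% of GFP and 15.9% of whole epithelium mucin-high cells, against 6.54% and 4.81% of colonocyte-like cells. Median depths before thinning were 25954 UMIs in GFP and 20397 UMIs in whole epithelium mucin-high cells, and 18685 and 16797 UMIs in colonocyte-like cells.

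Mitosis-high mucin-high cells carried less of the goblet products below than the other mucin-high cells of their library. They were also deeper before thinning, with medians of 43174 and 23292 UMIs in mitosis-high and other GFP cells. In the whole epithelium library these were 36202 and 20116 UMIs. The part of depth and of doublets in these differences was not tested. The goblet marker Spdef was lower too, at 196 and 245 CPM in the GFP library and 164 and 260 CPM in the whole epithelium library. In the GFP library Tff3, a trefoil peptide of mature goblet cells, was at 540 CPM (522 to 559) in the 139 mitosis-high cells and 2216 CPM (2194 to 2238) in the other 653. In the whole epithelium library it was at 311 CPM (285 to 339) in the 47 mitosis-high cells and 1465 CPM (1443 to 1487) in the other 526. Muc2 differed less, at 16258 and 22031 CPM in the GFP library and 15149 and 22542 CPM in the whole epithelium library. Fcgbp and Clca1, proteins of the mucus, were at 2227 and 2728 CPM in mitosis-high and 4266 and 5577 CPM in other GFP mucin-high cells.

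Genes of progenitors did not all stand the same way. Atoh1, the factor that sets the secretory fate, was at 63.7 CPM in mitosis-high and 103 CPM in other GFP mucin-high cells, and at 122 and 203 CPM in those of whole epithelium. Kit was at 18.6 CPM in mitosis-high and 24.2 CPM in other mucin-high cells of the GFP library, with intervals that overlapped, and at 49.2 and 97.3 CPM in the whole epithelium library. Reg4, known from secretory cells of the crypt base, stood at 504 CPM in mitosis-high and 780 CPM in other mucin-high cells of the GFP library, and at 58.2 and 898 CPM in those of whole epithelium. Slc12a2, an ion transporter of the lower crypt, was level at 310 and 311 CPM in the GFP library. Lgr5 was at 1.99 CPM in mitosis-high and 1.27 CPM in other GFP mucin-high cells, and at 9.59 and 4.84 CPM in those of whole epithelium, with overlapping intervals in both. Ascl2, a stem cell transcription factor, was at 5.14 CPM in mitosis-high and 6.47 CPM in other GFP mucin-high cells, and at 10.8 and 6.95 CPM in those of whole epithelium, again with overlapping intervals. The colonocyte gene Car1 was at 778 CPM in mitosis-high and 1641 CPM in other GFP mucin-high cells, and at 656 and 884 CPM in those of whole epithelium.

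**Figure D4:**
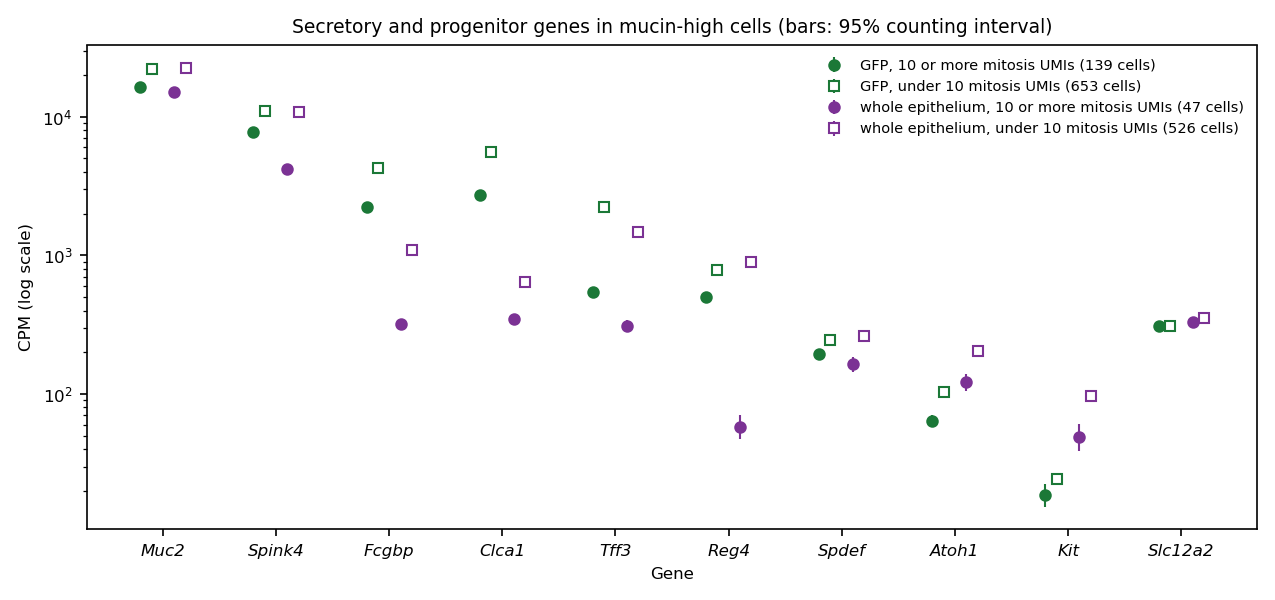
CPM (y axis, log scale) of secretory and progenitor genes (x axis) in mucin-high cells of the GFP library (green) and the whole epithelium library (purple), with filled circles for mitosis-high cells and open squares for the rest; bars are 95% counting intervals. The filled points lie below the open ones for Muc2 through Kit and meet them for Slc12a2 in the GFP library.

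Among mitosis-high cells the make-up of the mitosis sum was close between libraries. Since these cells were chosen by that sum, only its composition is compared. Chromosome genes made up 18.1% (17.8 to 18.3) of it in GFP cells and 16.5% (16.2 to 16.7) in whole epithelium cells, and centromere and kinetochore genes 12.6% and 11.8%. Entry kinases and cyclins made up 15.8% in GFP cells and 17.0% in whole epithelium cells, spindle genes 10.5% and 11.4%, and midzone genes 8.82% and 9.58%. Cdc20, Ube2c and Cdca3 together were level at 19.2% in each library. The single members that moved most in share were Kif23, with 1.92% in GFP cells and 2.41% in whole epithelium cells (log2 ratio of shares -0.33, -0.41 to -0.25), and Aurka, with 1.28% and 1.60% (-0.33, -0.43 to -0.23). Upward it was Ttk, with 0.612% and 0.526% (0.22, 0.06 to 0.38).

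Mucin-high and mucin-low mitosis-high cells could be set against each other within each library. Mki67 made up 8.88% of the sum in mucin-high and 8.33% in mucin-low GFP cells, and 8.68% and 7.52% in those of whole epithelium. Ncapd2 made up 1.18% and 1.00% in the GFP library and 1.41% and 1.10% in the whole epithelium library. Cdc20 went the other way, with 2.94% in mucin-high and 3.41% in mucin-low GFP cells and 3.35% and 3.90% in those of whole epithelium. For these 3 members the counting interval lay on the same side of 0 in both libraries; for the other 31 it did not in at least 1 of them.

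Over all kept cells other cell cycle genes divided by phase. Of 61 further mitosis genes 47 were higher in the GFP library over all kept cells, with a median log2 ratio of 0.20, where 47.2% of all genes were higher. The highest were Cit, a kinase of cytokinesis, at 21.5 CPM in GFP cells and 11.6 CPM in whole epithelium cells (0.90, 0.80 to 0.99), Ccnf, a cyclin-like F-box protein (0.67), and Espl1, the separase that frees sister chromatids (0.58). The lowest were Mybl2, an activator of mitosis genes (-0.48), Hjurp, which loads Cenpa (-0.25), and Cenpn (-0.21).

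DNA replication genes stood opposite: of 41 only Tyms, which makes thymidylate, was higher in the GFP library (0.05, 0.00 to 0.09), and 40 were lower, 11 of them by over 1.5-fold, with a median of -0.38. Of all genes 47.2% were higher and 13.5% lower by that fold. Cdc6, which loads the replicative helicase, was at 4.70 CPM in GFP cells and 8.16 CPM in whole epithelium cells (-0.80), and its partner Cdt1 at 14.1 CPM in GFP cells and 24.4 CPM in whole epithelium cells (-0.79). Uhrf1, which keeps DNA methylation through replication, was at 21.6 CPM in GFP cells and 36.8 CPM in whole epithelium cells (-0.77). Lig1, which seals DNA, and Mcm10, a helicase factor, stood at -0.03 and -0.11. In stem/progenitor-like cells 35 of 41 replication genes were lower and 6 higher in GFP cells (median -0.24), where 62.6% of all genes were higher. In goblet-like cells 21 were lower and 20 higher (median -0.02), and all 61 further mitosis genes were higher (median 0.80), against 54.8% of all genes. The split did not hold in every class. In colonocyte-like cells the medians of members and replication genes were -0.25 and -0.37, and in shallow unnamed clusters -0.92 and -0.90. In unnamed clusters of ordinary depth they were -0.30 and -1.44. There all 41 replication genes were lower, 38 by over 1.5-fold, where 51.8% of all genes were higher and 12.0% lower by that fold. In mucin-high cells 26 of 41 were higher (median 0.05), against 50.5% of all genes.

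Counted per cell, 13.1% of GFP cells and 19.3% of whole epithelium cells held 10 or more replication UMIs after thinning. Of the mitosis-high cells 38.4% in the GFP library and 44.0% in the whole epithelium library also did so. Of 19 measured cell cycle brakes, genes that hold cells out of division, 16 were lower and 3 higher in the GFP library (median -0.39), where 47.2% of all genes were higher, and 6 were lower by over 1.5-fold, against 13.5% of all genes. Cdkn1c, an inhibitor of cyclin-dependent kinases, was at 4.04 CPM in GFP cells and 8.14 CPM in whole epithelium cells (-1.01, -1.18 to -0.85), Gadd45b, a stress-response gene, stood at -0.84 and Cdkn2b, a further kinase inhibitor, at -0.82. Rb1 and Rbl2, of the retinoblastoma family, stood highest of the measured brakes at 0.12 and 0.08, then Cdkn2d at 0.00. The listed brake Cdkn2a was left out because it had fewer than 50 UMIs over both libraries. It had 38 UMIs in the GFP library and 4 in the whole epithelium library (3.59, 2.12 to 5.54).

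**Figure D5:**
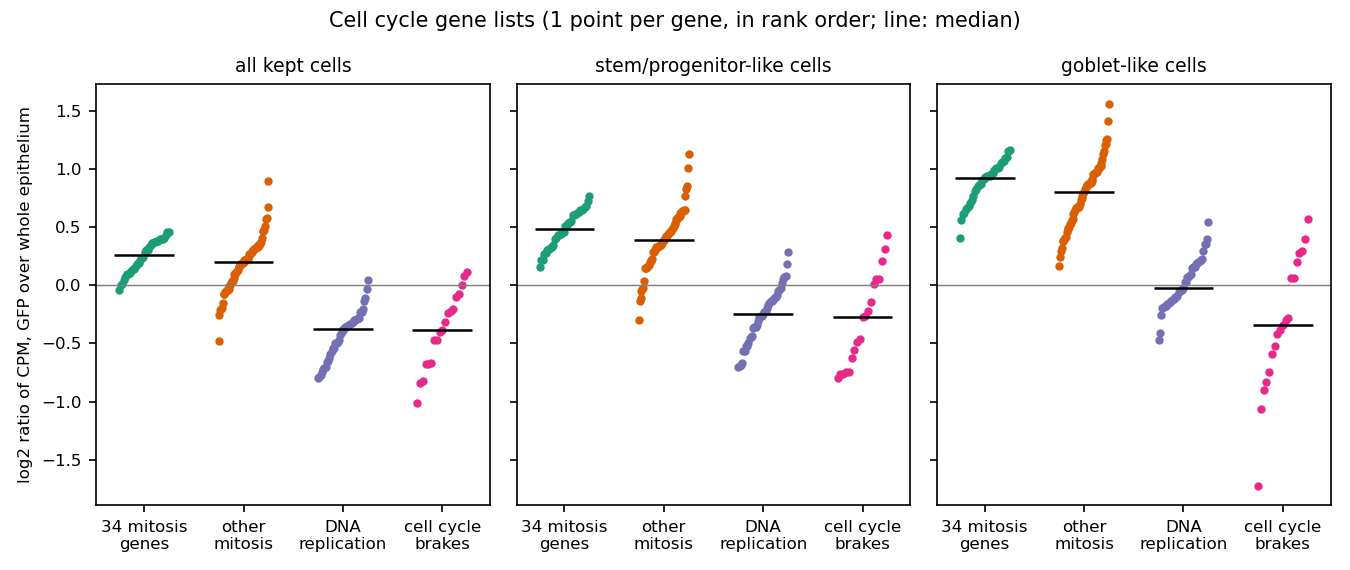
Log2 ratio of CPM (y axis, GFP over whole epithelium) of each gene of 4 lists (x axis) in all kept, stem/progenitor-like and goblet-like cells, with genes in rank order and the median as a line. The medians of the 34 mitosis genes lie at 0.26, 0.48 and 0.92 and those of the replication genes at -0.38, -0.24 and -0.02.

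Across clusters the members moved together. Over 17 GFP clusters and 24 whole epithelium clusters of at least 20 cells, the log2 level of each member was set against that of the summed 34 genes, itself included (with 10 CPM added to each level), and the smaller of its Pearson correlations in the 2 libraries ran from 0.80 (Ndc80) to 0.97 (Mki67). These are descriptions, since clusters of a library share its depth and free RNA. Outside the list Hmgb2, a DNA-bending chromatin protein, came closest, with 0.98 in the GFP library and 0.97 in the whole epithelium library. After it came Smc4, Ckap2l, Cenpw, Spc24, Melk, Tk1, Pclaf, Shcbp1 and Smc2, with smaller correlations from 0.96 to 0.94. Ndc80, Bub1, Kif20a and Ttk had the lowest values among members, and none of the 4 was above 10.1 CPM over all kept cells of either library.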

How the data were processed

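UMIs per gene and barcode were counted by the authors with Cell Ranger 2.1.1 on mm10, per the submitters' processing notes, while the file headers name version 3.1.0. The deposited matrices hold these raw counts, without normalisation, of 13575 barcodes (150348319 UMIs) for GFP and 13967 barcodes (164185392 UMIs) for whole epithelium. The protocol in the labels is the 3' v2 chemistry, so counts are of transcript ends and were not divided by length. Levels of different genes were ranked only to choose the member of each role given in full.

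Barcodes with at least 500 genes, 1000 UMIs and at most 25% mitochondrial UMIs were kept, and doublets were not called. Each library was clustered alone in scanpy 1.11.5 with leidenalg 0.10.2 (2000 variable genes, 30 components, 15 neighbours, resolution 1.0), without members, related mitosis and replication genes, histone genes and Hmgb2. A cluster of at least 20 cells took the name of the class whose markers were highest in it on average (log2 fold over the median cluster), if 3 markers were raised 2-fold and the score reached 0.5. Among the 10 leading genes markers of other classes had to be fewer than its own, or absent. Clusters whose median depth was far below that of their library (shallow clusters) needed a score of 1.5. These last 2 conditions were added after names had been seen.

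CPM are UMIs summed over cells, scaled to 1000000. A gene was measured with at least 50 UMIs over both libraries, and a class was compared with at least 100 cells in each. Intervals are exact Poisson for sums, exact conditional binomial for ratios and Clopper-Pearson for shares; differences of shares have Newcombe intervals. The scripts were tested on simulated data. The members and lists were chosen with earlier results of these data known. Values are given in full for the member with the highest CPM in each role and the 3 highest and 3 lowest members in log2 ratio per class. Promoters were read from a RefSeq table and gene positions from a GRCm38 annotation. Alternatives to the filter, clustering, weighting, scaling and cutoffs were computed. Calculations used Python 3.11.15, numpy 2.4.6, scipy 1.17.1, pandas 2.3.3 and matplotlib 3.10.9.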

Additional observations from a re-analysis of the deposited data

Results flagged for a closer look

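Barcodes outside the filter were not used in any comparison, and they too held mitosis transcripts. The 34 genes summed to 537 CPM (530 to 544) over 7808 such barcodes of the GFP library and to 384 CPM (377 to 392) over 6205 of the whole epithelium library. Mitochondrial UMIs made up 45.9% of their UMIs in the GFP library and 41.2% in the whole epithelium library. Of those with at least 5000 UMIs, 200 of 3125 in the GFP library (6.4%) and 66 of 1702 in the whole epithelium library (3.88%) were mitosis-high after thinning. There are no control samples for these barcodes. The order of the libraries was the same as among kept cells.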

How the results depend on the processing

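With 1 library per group no replicate could be left out, and depth limits the small classes most. No paired analysis was possible because each group has 1 library. Over all kept cells 31 to 34 members were higher in every alternative. The share of all genes higher was computed for the main setting only, so counts of members in the alternatives have no background here. The log2 ratio of the sum was 0.41 with at most 10% mitochondrial UMIs, 0.30 with equal weight per cell, 0.29 with mitochondrial genes out of the total and 0.30 centred on the median gene, and the gap in mitosis-high share was 9.18, 3.38 and 2.31 points with the 10% limit and with cutoffs of 5 and 20 UMIs. In goblet-like cells the sum was 1.14 with the 10% limit, 0.99 with at least 5000 UMIs per cell, 0.86 and 0.87 at resolutions 0.5 and 2.0, 0.71 with equal weight, 0.89 centred and 1.00 without shallow clusters (added after seeing the data), with gaps of 16.5 and 3.65 points at cutoffs of 5 and 20 UMIs. Mucin-high cells gave 13.0 and 2.23 points at these cutoffs. In stem/progenitor-like cells the sum was 0.41 with the 10% limit, 0.42 with at least 5000 UMIs, 0.61 at resolution 2.0, 0.074 with cell cycle genes in the clustering, 0.61 with equal weight and 0.43 centred. The gap in share was 10.5, 2.19 and 13.7 points with the 10% limit, cell cycle genes in the clustering and a cutoff of 20 UMIs. With cell cycle genes in the clustering its interval (-3.61 to 8.11) spanned 0, and 19 members were higher. Resolution 0.5 gave no value for this class. In colonocyte-like cells 2, 1, 30, 29, 11 and 12 members were higher, and the sum was -0.39, -0.63, 0.60, 0.59, -0.17 and -0.15, with the 10% limit, at least 5000 UMIs, resolution 0.5, cell cycle genes in the clustering, equal weight and centring, in that order. The cause of these changes was not tested. The chromosome genes' share of the mitosis sum was 2.07 points higher in GFP cells at a cutoff of 20 UMIs, against 1.61 points at 10.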
